A study of Sus scrofa with 12 samples.

Results

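BMP4, ACVR2A, SKI and TBX4 were followed in pig heart after left ventricular pressure overload. They are a secreted ligand, a receptor, a nuclear repressor and a developmental transcription factor, and they were picked by symbol from the 516 genes of the authors' deposited table, where all 4 were found. The members were chosen on the measured contrast itself, because that table lists genes with an unadjusted p of at most 0.04997 for pressure overload against control. Every difference between the groups given below for these 4 genes is therefore a description and carries no test. BMP4, at an unadjusted p of 0.0274 in the authors' deposited table, was the member nearest the limit. The last gene inside it, DLL4, was at 0.04997, and genes outside it were not analysed here.

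The LV Pressure Overload group held 6 libraries from heart of pigs whose ascending aorta had been narrowed stepwise with a cuff, studied at 5 weeks. The Referent Control group held 6 libraries from heart of pigs matched for age and weight. The series text speaks of 9 overloaded and 6 control pigs, gives neither strain nor sex nor any genetic change, and the cuff procedure is written on the control records too, so whether controls had an open or sham cuff is not known. Library identifiers are all different, though no label ties each to a separate pig, and the chamber sampled is given only as heart.

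Bone morphogenetic proteins and activins are secreted dimers of the TGF-beta superfamily. They bring type I and type II serine/threonine kinase receptors together, the type II receptor activates the type I receptor, and SMAD proteins then carry the signal into the nucleus. SKI binds SMADs there and holds their target genes back. In the heart, BMP signals act in the early specification of heart muscle and in the formation of valves and septa. TBX4 belongs to the T-box family and is best known from the mouse and chick as a factor of the hindlimb and of lung mesenchyme. In humans, variants of TBX4 are linked to small patella syndrome and to pulmonary arterial hypertension.

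The table gives CPM, which are read counts scaled by a library size. That size was recovered as the divisor behind the values, and whether it includes a normalization factor could not be read from them. The recovered size was between 19.5 and 31.9 M reads, averaging 25.3 M ± 4.21 among controls (SD, n = 6) and 27.3 M ± 2.66 under overload (SD, n = 6). The table holds 3.39% of the 15235 genes that the authors tested, with 375 genes lower and 141 higher in pressure overload. All 4 members are among them because of how they were picked, so their count is not read against that share. The 3.39% is itself below the share of 0.05 that an unadjusted p limit of 0.05 would list if no gene differed. The members were 3 lower and 1 higher. In the authors' deposited table the log2 fold change had a median of -0.46 over the 4 members and -0.42 over all 516 genes. The control and pressure overload libraries overlapped for each of the 4, so that 0 of 4 were fully separated, where 9.69% of the listed genes were. CPM is not corrected for transcript length, so levels are compared between libraries and not between genes.

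BMP4, the ligand, lies on chromosome 1 from 183415989 to 183422888 in RefSeq's annotation of Sscrofa11.1. In controls it was lowest at 9.68 CPM, had a median of 12.9 CPM and was highest at 16.5 CPM. In pressure overload these values were 6.65, 8.20 and 11.9 CPM. All 6 pressure overload libraries lay below the control median and 4 of them lay below every control, while the other two, replicates 2 and 3, reached into the control range. It averaged 12.9 ± 2.18 CPM over the control libraries (SD, n = 6) and 8.77 ± 1.98 CPM over the overloaded ones (SD, n = 6), which is 0.678 of the control level. The log2 difference, fitted with limma on log2(CPM + 1), was -0.52 ± 0.17 (SE), and the authors' deposited table gives a log2 fold change of -0.56 with an adjusted p of 1.0. That SE, like those given below, draws on the spread of the listed genes. These were chosen on the same contrast, so the SE may be too small. The fitted difference was -0.22 when libraries were rescaled by their median ratios and -0.33 when they were rescaled by upper quartiles. Between 173 and 395 reads per library stood behind these levels. In tissue RNA, fewer cells that make a transcript and less of it per cell cannot be told apart, which holds for each gene here.

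ACVR2A, a type II receptor that binds activins, myostatin and several bone morphogenetic proteins, lies on chromosome 15 from 4177333 to 4259056. Its control libraries ran from 29.5 CPM to 38.8 CPM around a median of 31.5 CPM. The pressure overload libraries ran from 20.2 CPM to 31.6 CPM around a median of 25.3 CPM. Of the pressure overload libraries, 5 were below every control, and replicate 2, the highest, lay inside the control range. It averaged 32.7 ± 3.63 CPM over the control libraries (SD, n = 6) and 25.2 ± 3.96 CPM over the overloaded ones (SD, n = 6), a ratio of 0.772. The log2 difference was -0.37 ± 0.13 (SE), and the authors' deposited table gives -0.37 with an unadjusted p of 0.0160 and an adjusted p of 1.0. Its size depended on scaling, at -0.05 when libraries were rescaled by their median ratios and -0.16 when they were rescaled by upper quartiles.

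SKI, the repressor of SMAD-driven transcription, lies on chromosome 6 from 64188265 to 64242596 and was the only member that was higher in pressure overload. In controls its lowest library was at 32.3 CPM, the median at 38.4 CPM and the highest at 49.7 CPM. In pressure overload the lowest was at 37.6 CPM, the median at 49.9 CPM and the highest at 70.0 CPM. The ranges overlapped widely, with 3 pressure overload libraries above every control and 1, replicate 4, below the control median. It averaged 39.8 ± 7.40 CPM over the control libraries (SD, n = 6) and 52.8 ± 12.3 CPM over the overloaded ones (SD, n = 6), a ratio of 1.33. The log2 difference was 0.39 ± 0.16 (SE), and the authors' deposited table gives 0.40 with an unadjusted p of 0.0162 and an adjusted p of 1.0. Rescaling by median ratios made it 0.71.

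The rescaling factors could be computed only from the listed genes, most of which were lower, and so carry an upward shift for pressure overload by construction. They moved the median log2 difference over all listed genes from -0.41 to -0.10. Relative to that median, ACVR2A and BMP4 lay close to the bulk of the listed genes and SKI lay above it, both as deposited and after rescaling.

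TBX4 lies on chromosome 12 from 36803355 to 36830321, was the scarcest of the members in reads, and had the largest relative difference of the 4. Control replicates 1 to 3 were at 1.71, 3.03 and 2.56 CPM, and control replicates 4 to 6 at 4.71, 6.20 and 4.44 CPM. Pressure overload replicates 1 to 3 were at 1.15, 0.739 and 0.140 CPM, and replicates 4 to 6 at 0.620, 2.32 and 1.73 CPM. All 6 pressure overload libraries were below the control median and 4 were below every control. Pressure overload replicates 5 and 6, at 2.32 and 1.73 CPM, lay above control replicate 1, at 1.71 CPM. It averaged 3.77 ± 1.64 CPM over the control libraries (SD, n = 6) and 1.12 ± 0.796 CPM over the overloaded ones (SD, n = 6), a ratio of 0.296. The coefficient of variation was 43.4% and 71.3%, against at most 23.2% for the 3 other members in either group.

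**Figure D1:**
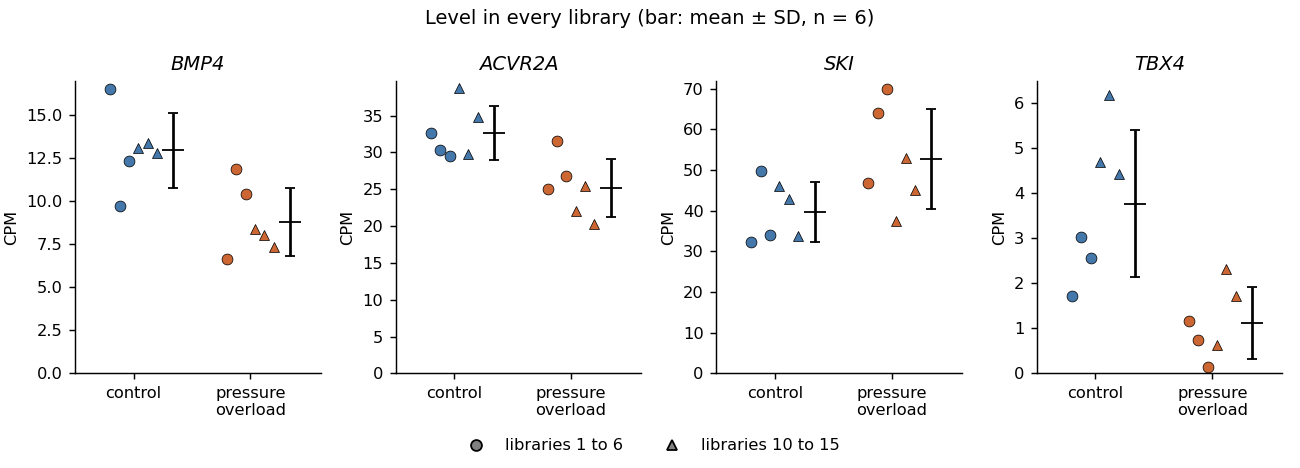
CPM of BMP4, ACVR2A, SKI and TBX4 in every library, by group, with circles for libraries numbered 1 to 6 and triangles for those numbered 10 to 15; the bar is the mean ± SD of 6 libraries. BMP4, ACVR2A and TBX4 sit lower and SKI higher in pressure overload, with overlap in each panel.

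On the log2(CPM + 1) scale TBX4 differed by -1.19 ± 0.30 (SE), a scale that understates the change of a gene this low. With a pseudocount of 0.1 the log2 difference was -1.89. The authors' deposited table gives a log2 fold change of -1.65, the fourth lowest of its 516 genes, with an unadjusted p of 0.00246 and an adjusted p of 0.766. TBX4 passed the filter of 1 CPM in at least 6 libraries through the group in which it was high, with 6 of 6 controls and 3 of 6 pressure overload libraries at 1 CPM or more.

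The depth behind TBX4 was 36 to 174 reads in controls and 4 to 74 reads in pressure overload. The lowest library, pressure overload replicate 3, held 4 reads, for which the exact Poisson 95% interval is 1.09 to 10.2 reads, or 0.0381 to 0.358 CPM. The interval covers counting error only. The reads of TBX4 and ACVR2A were even numbers in 12 of 12 libraries, and those of SKI in 11 and of BMP4 in 7. If reads were counted in pairs, the 4 reads would be 2 independent fragments with an interval of 0.0169 to 0.505 CPM, still below the lowest control.

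The library identifiers fall into a run from 1 to 6 and a run from 10 to 15, each with 3 controls and 3 pressure overload libraries. The labels do not say what the runs stand for. The TBX4 controls of the first run, at 2.44 ± 0.669 CPM, lay entirely below those of the second, at 5.11 ± 0.946 CPM (SD, n = 3 each), a ratio of 2.10. In pressure overload the first run was at 0.677 ± 0.510 CPM and the second at 1.56 ± 0.864 CPM, a ratio of 2.30, with overlap. Set against the controls of its own run, pressure overload was at 0.278 of the control mean in the first run and 0.304 in the second.

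Within each run the TBX4 libraries of the groups did not overlap. Of the listed genes, 20.2% were lower without overlap in the first run, 56.6% in the second and 13.2% in both. In the second run BMP4 and ACVR2A were also lower without overlap, and in the first run neither was. These shares are of genes already listed for a difference in the same libraries, so nothing about the members is read from them.

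For the other 3 members the ratio of pressure overload to control was not the same in the 2 runs. BMP4 was at 0.752 of the control mean in the first run and 0.605 in the second. ACVR2A was at 0.903 and 0.655, with log2 differences of -0.15 and -0.59. SKI went the other way, with a ratio of 1.56 in the first run, where pressure overload averaged 60.3 ± 12.1 CPM, and 1.11 in the second, where it averaged 45.2 ± 7.73 CPM (SD, n = 3 each). Whether the differences between groups were unequal between the runs was not tested.

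**Figure D2:**
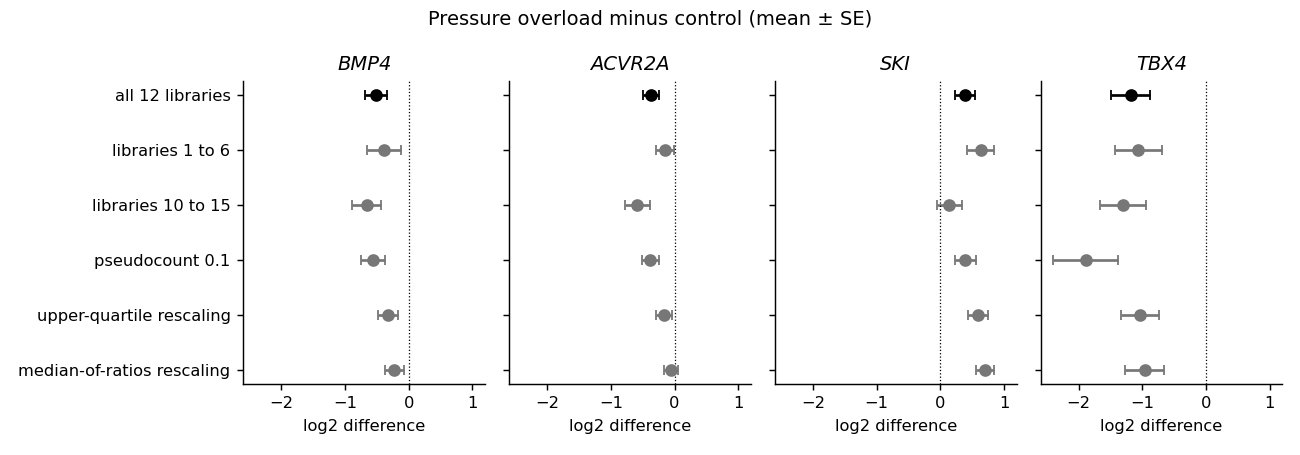
Log2 difference of pressure overload minus control on the log2(CPM + pseudocount) scale for each gene, as mean ± SE, over all 12 libraries, within each run of library numbers, with a pseudocount of 0.1 and after each rescaling. The sign of each gene was kept in every setting shown, while ACVR2A ranged from -0.59 to -0.05 and TBX4 from -1.89 to -0.96. The SE was larger than the difference for ACVR2A after median-of-ratios rescaling and for SKI within the second run.

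The ratio of CPM between members within a library does not depend on how the library was scaled. SKI over ACVR2A was 0.968 at its lowest and 1.64 at its highest in controls. In pressure overload it ran from 1.70 to 2.61. The groups did not overlap, and the ratio averaged 1.23 ± 0.262 over controls (SD, n = 6) against 2.09 ± 0.316 under overload (SD, n = 6). The direction follows from setting a gene listed as higher over a gene listed as lower, and 25.7% of all such pairs in the table were separated as fully. SKI over BMP4 was 3.20 ± 1.08 in controls and 6.07 ± 0.956 in pressure overload, with 5 of 6 pressure overload libraries above every control. BMP4 over ACVR2A, a ligand set over a receptor that were both lower, was 0.399 ± 0.0708 and 0.348 ± 0.0479, with wide overlap.

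**Figure D3:**
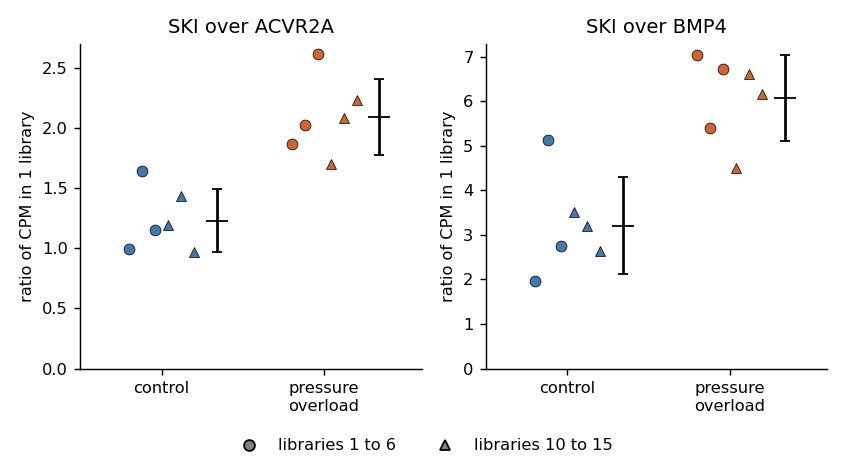
Ratio of SKI to ACVR2A and of SKI to BMP4 in each library, by group, with the mean ± SD of 6 libraries; symbols mark the run of library numbers. The SKI to ACVR2A ratio reached at most 1.64 in controls and was at least 1.70 in pressure overload, a separation favoured by how the genes were chosen.

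Correlations between the members were taken within each group on log2(CPM + 1), since a correlation over both groups carries the difference for which the genes were picked. For the 6 pairs in 2 groups, 12 relations were computed, each over 6 libraries, with an exact two-sided permutation test and Benjamini-Hochberg adjustment over the 12. BMP4 and TBX4 had r = -0.21 and rho = 0.086 in controls (exact permutation p = 0.757 and 0.919, adjusted p = 0.826 and 1.0). In pressure overload they had r = -0.60 and rho = -0.60 (exact permutation p = 0.214 and 0.242, adjusted p = 0.513 and 0.711). Without the 2 libraries farthest from the BMP4 median, r was 0.97 in controls and -0.11 in pressure overload, over 4 libraries each. Leaving these out also narrows the range of BMP4, so the change shows that r was unstable but not what it rested on. Over all 12 libraries r was 0.39 and rho 0.46, and r was -0.43 once each library was taken as a deviation from its group mean.

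BMP4 and SKI had opposite signs in the groups. In controls r was -0.65 and rho -0.54 (exact permutation p = 0.149 and 0.297, adjusted p = 0.446 and 0.711). In pressure overload r was 0.72 and rho 0.54 (exact permutation p = 0.1125 and 0.297, adjusted p = 0.446 and 0.711). Neither sign was stable, since without the 2 libraries farthest from the BMP4 median r was 0.81 in controls and -0.31 in pressure overload. Only 4 libraries with a narrower range of BMP4 were then left in each group. Over all 12 libraries r was -0.33 and rho -0.48, and r was 0.19 as deviations from the group means.

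The largest rank correlation was that of ACVR2A and SKI in pressure overload, with r = 0.78 and rho = 0.89 (exact permutation p = 0.0611 and 0.0333, adjusted p = 0.446 and 0.40), and r = 0.94 without the 2 libraries farthest from the ACVR2A median. In controls r was 0.077 and rho -0.029 (exact permutation p = 0.882 and 1.0, adjusted p = 0.882 and 1.0), and r was -0.41 without the 2 farthest libraries. After median-of-ratios rescaling r of ACVR2A and SKI was 0.40 in pressure overload and 0.28 in controls. Under overload the second run of library numbers was at 0.812 of the first for ACVR2A and 0.751 for SKI, with overlap. The part of scaling and run in this correlation was not tested. BMP4 and ACVR2A had r = 0.74 and rho = 0.71 in pressure overload (exact permutation p = 0.0903 and 0.136, adjusted p = 0.446 and 0.711), which became -0.14 without the 2 farthest libraries. None of the 12 relations passed the adjusted test.

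**Figure D4:**
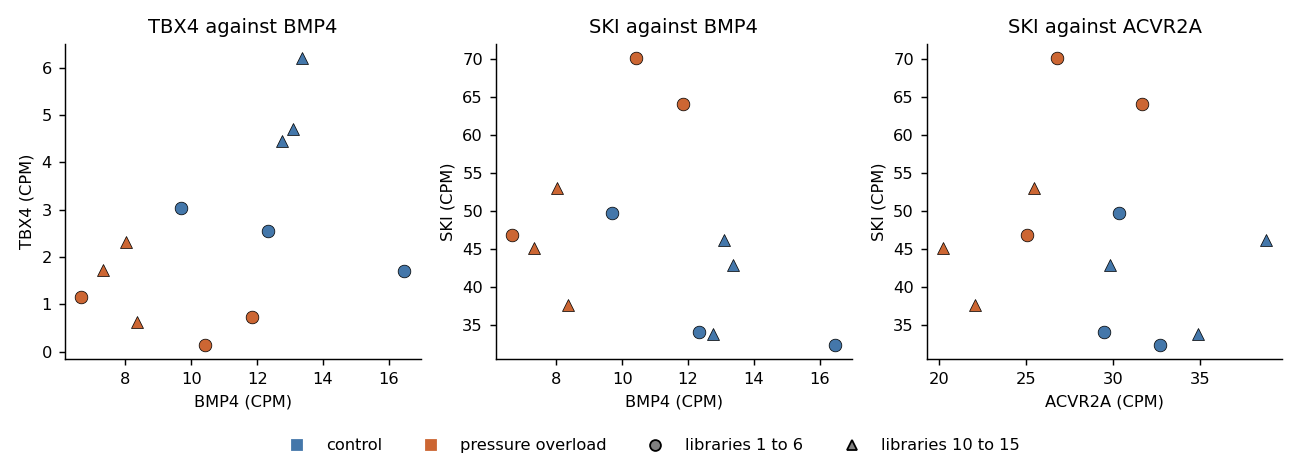
CPM of TBX4 against BMP4, SKI against BMP4 and SKI against ACVR2A, with 1 point per library, coloured by group and shaped by the run of library numbers. In the SKI against ACVR2A panel r on the log2 scale was 0.78 for the pressure overload libraries and 0.077 for the controls. After median-of-ratios rescaling these were 0.40 and 0.28.

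Other genes of the pathway were taken from 10 lists, which hold 142 annotated pig genes besides the members. Of these, 3 were in the table, or 2.11%, beside 3.39% of all tested genes. How many of the 142 annotated genes the authors tested is not known, so these shares have unlike bases and are not compared. The ligand list had 1 of 29 genes in the table, which is BMP4, and the type II receptor and co-receptor list had 1 of 12, which is ACVR2A. The list of SMAD co-repressors, ubiquitin ligases and cofactors had the highest share, with 3 of 19 or 15.8%, which are SKI, USP15 and CREBBP. SKI, like the other members, was in the table because of how the members were picked. The shares of lists that hold a member are therefore not read against the 3.39%. The secreted antagonists had 1 of 19, which is CRIM1. Among the T-box factors 1 of 17 was in the table, which is TBX4. None of the 7 type I receptors, 8 SMADs, 9 TGF-beta ligands and latency proteins or 18 direct target genes was in it. The direct targets included the ID genes, which respond to BMP signals. Genes outside the table may still have differed, since it was cut at an unadjusted p of 0.05.

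The 3 other pathway genes act on either side of the receptors. CRIM1, a membrane protein that binds bone morphogenetic proteins, averaged 43.6 ± 9.97 CPM over controls and 56.2 ± 13.8 CPM under overload (SD, n = 6 libraries a group). USP15, a deubiquitinase that acts on TGF-beta receptors and SMADs, was at 40.4 ± 7.31 and 51.4 ± 10.2 CPM. CREBBP, an acetyltransferase that SMADs recruit to activate genes, was at 58.4 ± 3.48 and 47.7 ± 10.3 CPM. All 3 have an adjusted p of 1.0 in the authors' deposited table. As with ACVR2A, the ratios of CREBBP and USP15 to control were farther from equality in the second run of library numbers, at 0.658 and 1.48, than in the first, at 0.986 and 1.06. For CRIM1, as for SKI, the first run had the larger ratio, with 1.41 against 1.15.

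The genes most like each member were ranked by the correlation of deviations from the group means over 12 libraries, among the 512 genes that passed the filter, as a description. TBX4 went most closely with ARFRP1, an ARF-related GTPase (r = 0.87), DEF8 (r = 0.83) and ADAMTS3, a procollagen-cleaving metalloproteinase (r = 0.80). It was most opposed to RBPJ, the DNA-binding partner of Notch (r = -0.82), and SCD, a fatty acid desaturase (r = -0.73). SKI went with STARD8 (r = 0.84), MMP11, a matrix metalloproteinase (r = 0.80), and OAF (r = 0.80). MMP11 was lower in pressure overload, with a log2 fold change of -0.95 in the authors' deposited table, although SKI was higher. SKI was most opposed to the proteasome subunit PSMD14 and the glycosyltransferase B3GALNT1 (r = -0.81 each).

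BMP4 went with CRACDL, KDM5D and FAIM, an inhibitor of apoptosis (r = 0.71, 0.71 and 0.69), and was most opposed to the actin-binding profilin PFN2 (r = -0.85) and the dynein chain DYNC1I2 (r = -0.67). ACVR2A went with MTHFSD, the ESCRT-III subunit CHMP4C and the RNA-binding protein FMR1 (r = 0.79, 0.77 and 0.75). It was most opposed to the Arp2/3 subunit ARPC2 (r = -0.75) and the RNA-binding protein HNRNPDL (r = -0.70). These values share libraries, depth and the runs of library numbers. As deviations from the mean of each group within its run, the 5 genes named for TBX4 had r = 0.84 for ARFRP1, 0.73 for DEF8, 0.67 for ADAMTS3, -0.62 for RBPJ and -0.48 for SCD, and all 20 named genes kept their sign. The kept signs are no test, since the genes were picked as extremes in the same libraries. Only 7 of the 20 genes were named again after median-of-ratios rescaling. Both checks were added after the data were seen.

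Of 42 annotated marker genes of heart cell types, 2 were in the table, or 4.76%, beside 3.39% of all tested genes. How many of the 42 were tested is not known, and nothing about cell types is read from this count. The defining markers of ventricular muscle were among those not analysed here, so the tissue label could not be checked against them. MYL4, the atrial myosin light chain and the only 1 of 6 atrial markers in the table, ran from 12.9 to 40.0 CPM in controls and from 4.76 to 17.0 CPM in pressure overload. Its deviations had a correlation of 0.024 with those of TBX4 and -0.30 with those of BMP4 over 12 libraries. KDR, a VEGF receptor, was the only 1 of 6 endothelial markers in the table. It ran from 62.1 to 147 CPM in controls and from 112 to 191.5 CPM in pressure overload. Its deviations had a correlation of 0.71 with those of SKI. Those of SKI also had correlations of 0.73 with CREBBP, 0.69 with CRIM1 and -0.43 with USP15. Under overload KDR averaged 180 CPM in the first run of library numbers and 119 CPM in the second, and SKI was also lower in the second. The part of the runs in this correlation was not tested. KDM5D, a Y-linked demethylase with an X-linked copy that could share its reads, averaged 7.84 ± 1.81 CPM over controls and 4.75 ± 1.42 CPM under overload (SD, n = 6 libraries a group) and was at least 3.12 CPM in every library. The part of these cell types, and of sex, in the differences of BMP4, ACVR2A, SKI and TBX4 was not tested.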

How the data were processed

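Polyadenylated RNA of 12 pig heart libraries was sequenced from a directional kit, per the labels' protocols. The submitters' processing notes name the build Sscrofa11.1, the aligner STAR 2.7.2b, the trimmer Trim Galore 0.4.5 and the counter featureCounts from Subread 1.5.3. Neither annotation nor strand setting is stated in the sources used here. Per the file headers, the deposited table holds CPM per library and, from the authors' own comparison, a log2 fold change, a likelihood-ratio score, a p-value and its adjusted value. The ratio of adjusted to unadjusted p implies 15235 tested genes.

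Library sizes were recovered by searching from 18 to 36 M reads for the step that makes values below 30 CPM whole within 0.02 reads. Between 94.6% and 96.8% of values were then whole. No count model was fitted, because the deposited values are CPM and not counts. limma 3.58.1 (R 4.3.3) with an intensity trend was fitted on log2(CPM + 1) over the 512 of 516 genes with at least 1 CPM in at least 6 libraries, for estimates and SE only, after a check on simulated data. The simulated levels were set well above the measured ones, so the check does not cover genes as low as TBX4. Permutation tests used SciPy 1.17.1. No 2 libraries were identical. The permutation p-values measure how often shuffled pairings of the libraries gave an r or rho at least as large in size. The spread between libraries may be technical.

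The members, lists and alternatives were chosen with earlier results of these data known. Named genes were the members, listed members of the lists, and for each member the 3 most and 2 least correlated genes. All 4 members matched RefSeq, and none overlapped another annotated gene. Protein and promoter sequences were not used here.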

Additional observations from a re-analysis of the deposited data

How the results depend on the processing

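The sign of the 4 log2 differences was kept under every alternative run. A kept sign says little where the SE was larger than the difference or nearly as large. ACVR2A had an SE of 0.112 after median-of-ratios rescaling, at -0.053, and of 0.144 in libraries 1 to 6, at -0.15. SKI in libraries 10 to 15 was at 0.14, which is less than its SE. The following moved by more than the SD between libraries. Median-of-ratios rescaling gave -0.22 for BMP4, -0.053 for ACVR2A and 0.71 for SKI, and upper-quartile rescaling gave -0.16 for ACVR2A; the shift is built in, because the factors come from mostly lower genes. ACVR2A was at -0.15 in libraries 1 to 6 and -0.59 in libraries 10 to 15, and TBX4 at -1.89 with a pseudocount of 0.1. The other 73 values moved by less. They include the fits with a run term, without the filter and with a replicate block. None of these could move an estimate in this balanced design, so their kept values and signs say nothing. Most of the rest left out 1 library and so shared nearly all libraries with the main fit. Leaving out each library in turn gave -0.61 to -0.45 for BMP4, -0.43 to -0.31 for ACVR2A, 0.30 to 0.48 for SKI and -1.33 to -1.03 for TBX4. Of the correlations, 7 values changed sign. Without the 2 farthest libraries these were BMP4 with TBX4 (0.97) and with SKI (0.81) and ACVR2A with TBX4 (-0.63) and with SKI (-0.41) in controls, and BMP4 with SKI (-0.31) and with ACVR2A (-0.14) in pressure overload. After median-of-ratios rescaling, ACVR2A with TBX4 in controls was -0.14. The cause was not tested.

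The replicate numbers of the column names do not pair the libraries: deviations of same-numbered libraries correlated from -0.09 to 0.23, over 0.1 in 2 of 6 pairs, and 1 of 6 controls matched its own number best. With the numbers as a replicate block the log2 differences were the same by design (-0.52, -0.37, 0.39 and -1.19). Depth limits TBX4 most, with 4 to 74 reads in pressure overload.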

Other observations

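Read counts recovered from the CPM values were mostly even. Over all listed genes and libraries, 82.2% of the whole values were even numbers, with 79.2% in the lowest library and 84.1% in the highest. TBX4 and ACVR2A were even in 12 of 12 libraries and BMP4 in 7. The labels do not say whether each mate of a read pair was counted. If so, the number of independent fragments is lower than the number of reads, most clearly for TBX4, whose lowest library held 4 reads. Which it was could not be read from the table and was not tested.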
